A study of Mus musculus with 156 samples.

Results

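The medium spiny neuron is the principal cell of the striatum, and 32 genes known to mark its identity were followed after psychotropic drugs. The genes were listed by name, without use of their response to the drugs, although earlier results of these data were known. Each was read from the brightest of its probes on Illumina MouseWG-6 arrays. A probe named for the gene was found for 30 of the 32 genes, among 19057 genes named on the array. Adora2a, an adenosine receptor of the indirect pathway, and Gpr52, an orphan receptor of the same neurons, were not analysed here because none of the probes carried their name.

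RNA came from the rostral caudate putamen and nucleus accumbens of male C57BL/6J mice, and each of 156 arrays held RNA pooled from 2 mice. The labels give the mice as 6 to 10 weeks old and the methods as 8 to 10 weeks old. Mice received a single intraperitoneal injection and were killed after 1, 2, 4 or 8 h, with 3 arrays for each drug and time. The antidepressants (bupropion, tranylcypromine and mianserin) were given at 20 mg/kg. Of the antipsychotics, risperidone was given at 0.5 mg/kg, haloperidol at 1 mg/kg and clozapine at 3 mg/kg, and of the anxiolytics, buspirone and hydroxyzine were given at 10 mg/kg and diazepam at 5 mg/kg. Vehicle mice received saline or 1% Tween 80, and naive mice no injection. The antipsychotics and diazepam were given in Tween 80, and the other drugs in saline. A first set of 18 chips held the antidepressants, the antipsychotics, Tween 80, naive and saline replicates 1 to 3, and a second set of 8 chips held the anxiolytics and saline replicates 4 to 6. Drug arrays were set against the vehicle arrays of the same time and set, which are 6 arrays in the first set (saline and Tween 80) and 3 saline arrays in the second. Diazepam was suspended in Tween 80, so its vehicle and its comparison with saline cannot be told apart.

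Medium spiny neurons are GABAergic projection neurons that carry the output of the striatum. Those of the direct pathway express the dopamine D1 receptor, which raises cAMP, and those of the indirect pathway express the dopamine D2 receptor, which lowers it. Their identity is kept by transcription factors such as Bcl11b (Ctip2), Foxp1 and Isl1, and retinoic acid signalling through Rarb and Rxrg takes part in their development. In whole tissue, fewer neurons and less RNA per neuron cannot be told apart.

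The identity genes were measurable with few exceptions. As a rough background, 15 genes restricted to other organs had mean log2 signals between 7.72 and 8.53, and 26 of the 30 identity genes lay above all of them. The other 4 were Drd3 (the D3 receptor), Chrm4 (the muscarinic M4 receptor), Adcy5 (the main striatal adenylyl cyclase) and Eya1 (a transcriptional coactivator), for which a small difference could be missed. Among genes of the signalling machinery, log2 signals in vehicle arrays of the first set ran from 14.58 to 15.49 for Ppp1r1b (DARPP-32, the phosphatase inhibitor controlled by dopamine), from 15.12 to 15.68 for the phosphodiesterase Pde1b, and from 15.40 to 15.80 for the cAMP-regulated phosphoprotein Arpp21. In the same arrays Drd1, the D1 receptor, ran from 12.77 to 13.68, Drd2, the D2 receptor, from 11.31 to 12.22, and Bcl11b from 13.53 to 14.08. Probes differ in brightness, so these values give no order of abundance between genes.

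Called genes were few after every drug. A gene was called at a false discovery rate of 5% over all 45279 probes by limma's moderated F test over the 4 times. Risperidone lowered 2 of the 30 genes, against 1.22% of all probes called in either direction. Mianserin changed 2 of 30, against 3.26% of all probes. Tranylcypromine lowered 1 of 30, against 1.59% of all probes. With 30 genes, 1 gene is 3.33% and 2 genes are 6.67%, so these shares rest on single genes. In the test of any drug of the first set, Gpr6 alone was called (adjusted p = 0.0138), against 2.71% of all probes.

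**Figure D1:**
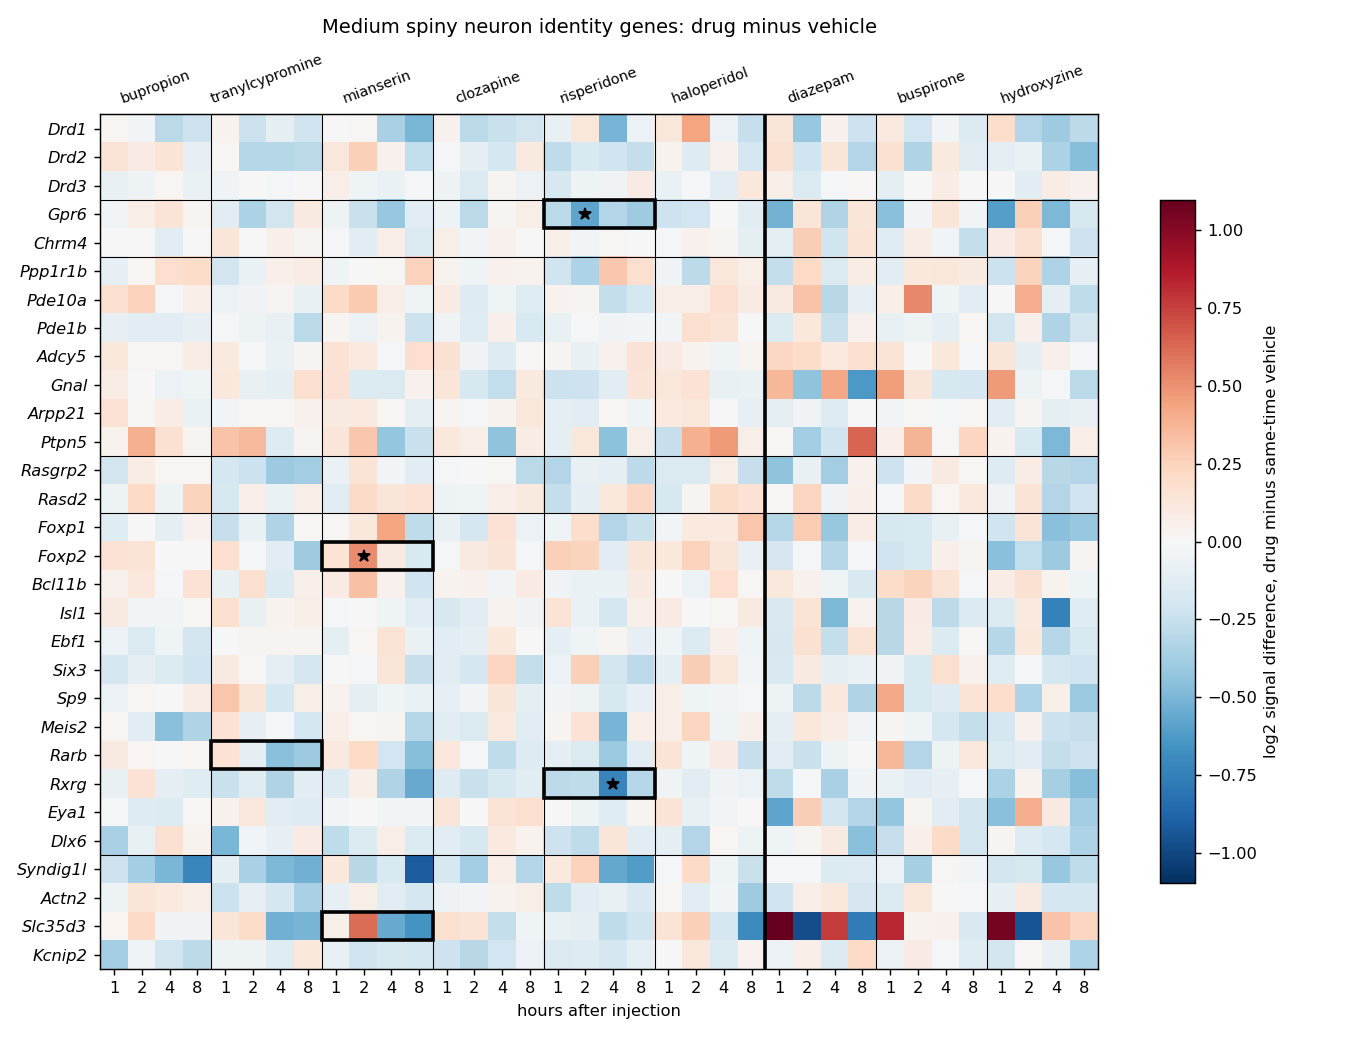
Log2 signal difference of the 30 identity genes (rows, grouped by role) at 1, 2, 4 and 8 h after each of 9 drugs (columns), drug minus vehicle of the same time and chip set. Colours run from blue (lower after the drug) to red (higher after the drug), boxes mark genes called over the 4 times, stars single times called, and the thick line divides the chip sets; the 5 boxes are 2 in risperidone, 2 in mianserin and 1 in tranylcypromine.

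Of the 36 comparisons of a drug at a single time, 3 called a gene. These were Gpr6 at 2 h and Rxrg at 4 h after risperidone, and Foxp2 at 2 h after mianserin, against 0.298%, 1.16% and 0.479% of all probes in the same comparisons. The other 33 comparisons called none of the 30 genes, against 0.156% of their probes in all. No gene passed the test of whether the effect of a drug differed between times (smallest adjusted p = 0.0835 over 9 tests in limma), against 0.122% of all probes.

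The sequences around the start of 3 called genes are shown, with a motif of cAMP or nuclear receptor signalling chosen for each gene. Slc35d3, also called, has a window that is not shown, and Foxp2 has none. Each is the RefSeq window from 250 bases before to 50 bases after the start of a transcript, on the strand of the gene, in GRCm38.p6. Gpr6 lies at chr10:41072241-41072540 on the minus strand, and the capitals mark TGACGTCA, the cAMP response element. Rxrg has windows at chr1:167598112-167598411 and chr1:167618015-167618314 on the plus strand, and the capitals in its second window mark AGGTCA, the core motif of nuclear receptors. Rarb lies at chr14:16575427-16575726 on the minus strand, and the capitals mark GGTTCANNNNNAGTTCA, a direct repeat in the form of a retinoic acid response element.
Gpr6: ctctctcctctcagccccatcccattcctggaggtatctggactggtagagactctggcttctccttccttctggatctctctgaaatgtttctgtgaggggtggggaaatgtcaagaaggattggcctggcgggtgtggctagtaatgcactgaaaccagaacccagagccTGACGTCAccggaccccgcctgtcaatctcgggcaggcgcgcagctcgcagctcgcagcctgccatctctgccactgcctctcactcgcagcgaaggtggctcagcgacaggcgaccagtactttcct
Rxrg, first start: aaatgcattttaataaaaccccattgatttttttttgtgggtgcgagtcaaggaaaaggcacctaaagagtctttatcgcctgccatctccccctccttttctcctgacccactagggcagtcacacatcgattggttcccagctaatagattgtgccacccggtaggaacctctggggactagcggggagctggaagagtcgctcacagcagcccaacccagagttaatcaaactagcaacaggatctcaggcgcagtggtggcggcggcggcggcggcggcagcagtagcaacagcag
Rxrg, second start: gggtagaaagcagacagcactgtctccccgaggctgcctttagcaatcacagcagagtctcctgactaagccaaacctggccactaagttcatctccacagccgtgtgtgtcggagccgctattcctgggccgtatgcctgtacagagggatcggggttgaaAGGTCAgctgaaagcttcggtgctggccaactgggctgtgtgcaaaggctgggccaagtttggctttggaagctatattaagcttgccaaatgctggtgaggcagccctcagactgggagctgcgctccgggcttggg
Rarb: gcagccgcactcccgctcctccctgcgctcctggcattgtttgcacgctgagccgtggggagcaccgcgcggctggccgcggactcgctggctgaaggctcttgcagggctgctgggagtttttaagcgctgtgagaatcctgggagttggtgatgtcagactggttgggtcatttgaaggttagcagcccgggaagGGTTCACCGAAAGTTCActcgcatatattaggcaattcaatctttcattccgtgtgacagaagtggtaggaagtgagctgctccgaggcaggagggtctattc
The motifs were searched on both strands, and AGGTCA is not part of the longer repeat. The search found TGACGTCA in 1.79%, AGGTCA in 16.3% and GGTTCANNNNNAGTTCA in 0.00609% of 32851 such windows. The windows matched 24 of the 32 genes and numbered 42. Of the identity genes, the cAMP response element was found for Gpr6, the direct repeat for Rarb, and the core motif for Rxrg, Actn2 and Arpp21. The core motif lay in 3 of the 42 windows and is common in all windows, so it does not set Rxrg apart. The cAMP response element lay in 1 of the 42 windows, against 1.79% of all windows. It was picked for Gpr6, so it does not set Gpr6 apart either. The direct repeat lay in 2 of all 32851 windows, 1 of them the window of Rarb. This repeat was picked for Rarb, and its fixed letters are those printed in the Rarb window. Neither the match nor the low share of windows therefore sets Rarb apart. A match is a description of these letters and does not show that a factor binds there.

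Gpr6, a constitutively active receptor of indirect pathway neurons that raises cAMP, was lower after risperidone, an antagonist of dopamine D2 and serotonin 5-HT2A receptors. At 2 h its log2 signal was 9.03, 9.11 and 9.18 in risperidone arrays, against 9.67, 9.74 and 9.77 in saline arrays and 9.62, 9.64 and 9.70 in Tween 80 arrays. The groups did not overlap, and both vehicles were alike. The difference was -0.58 ± 0.14 (SE, n = 3 and 6), or 0.668 of the vehicle level, with an adjusted p of 0.0305 at this time and 0.00111 over the 4 times in limma. The differences at 1, 4 and 8 h were -0.30, -0.33 and -0.39, and the groups overlapped. At 8 h the arrays read 8.85, 8.98 and 9.36 after risperidone, against 9.35 to 9.67 after vehicle, so that only the highest risperidone array reached the lowest vehicle array. Gpr6 was called in each of 9 fits that left out 1 replicate number, with adjusted p between 0.00167 and 0.0471. The call was lost with 1 spread estimated for all arrays (adjusted p = 0.124) and with median scaling (0.106). It was also lost against Tween 80 arrays alone, the vehicle of risperidone (0.101).

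Rxrg, the retinoid X receptor gamma, which pairs with retinoic acid receptors on DNA, was lower after risperidone as well. At 4 h its log2 signal was 10.49, 10.56 and 10.63 in risperidone arrays, against 11.08, 11.48 and 11.59 in saline arrays and 10.92, 11.22 and 11.46 in Tween 80 arrays. All 3 risperidone arrays lay below all 6 vehicle arrays and within a range of less than 0.2. The difference was -0.73 ± 0.16 (SE, n = 3 and 6), or 0.603 of the vehicle level, with an adjusted p of 0.00363 at 4 h and 0.00393 over the 4 times in limma. At 1, 2 and 8 h the differences were -0.29, -0.28 and -0.31, and the groups overlapped. Without risperidone replicate 2 the adjusted p over the 4 times was 0.155, and without replicate 3 it was 0.0975, with differences at 4 h of -0.69 and -0.73. The call of Rxrg was also lost with median scaling (0.200) and against Tween 80 arrays alone, the vehicle of risperidone (0.147).

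Foxp2, a forkhead transcription factor of striatal neurons, rose after mianserin, a tetracyclic antidepressant that blocks serotonin 5-HT2 and adrenergic alpha-2 receptors. At 2 h its log2 signal was 9.31, 9.35 and 9.44 in mianserin arrays, against 8.76, 8.93 and 9.15 in saline arrays and 8.63, 8.76 and 8.85 in Tween 80 arrays. The groups did not overlap. The difference was 0.52 ± 0.12 (SE, n = 3 and 6), or 1.43 times the vehicle level, with an adjusted p of 0.0155 at 2 h and 0.0191 over the 4 times in limma. At 1, 4 and 8 h the differences were 0.15, 0.10 and -0.17, with overlapping groups. The other 3 probes named for Foxp2 differed at 2 h by 0.11, -0.20 and 0.12, and none of them was called (adjusted p of 0.555 to 0.892 over the 4 times), so the change rests on 1 of 4 probes. Leaving out any mianserin replicate number ended the call of Foxp2, with adjusted p of 0.0536, 0.104 and 0.114 without replicates 1, 2 and 3, as did leaving out saline replicate 3 (0.101).

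Slc35d3, a transporter-like protein that has been linked to D1 receptor traffic in direct pathway neurons, differed in opposite directions early and late after mianserin. At 2 h the log2 signal of Slc35d3 was 11.44, 11.67 and 12.24 in mianserin arrays, against 11.14, 11.22 and 11.26 in saline arrays and 10.53, 11.21 and 11.64 in Tween 80 arrays. The groups overlapped at 2 h through 1 Tween 80 array. At 8 h it was 10.59, 10.62 and 11.09 in mianserin arrays, against 11.23, 11.28 and 11.51 in saline arrays and 11.41, 11.51 and 11.61 in Tween 80 arrays. All mianserin arrays lay below all vehicle arrays at 8 h. The differences at 1, 2, 4 and 8 h were 0.06, 0.61, -0.55 and -0.66 (SE 0.24 at each time), with an adjusted p of 0.0395 over the 4 times in limma, and none was called at a single time (adjusted p of 0.337 at 2 h and 0.166 at 8 h). The difference between times was itself not called (adjusted p = 0.0835). At 8 h Slc35d3 also differed by -0.70 after haloperidol and -0.51 after tranylcypromine, not called over the 4 times (adjusted p of 0.645 and 0.399). After bupropion it differed by -0.04 at 8 h. The largest differences after clozapine and risperidone were -0.26 and -0.28, both at 4 h. The call of Slc35d3 was lost without mianserin replicate 1 or 2 (adjusted p of 0.485 and 0.174), without any saline replicate of the first set (0.0573, 0.0806 and 0.104), and without Tween 80 replicate 1 or 3 (0.119 and 0.0672).

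Rarb, the retinoic acid receptor beta, was lower after tranylcypromine, an inhibitor of monoamine oxidase. At 4 h its log2 signal was 11.23, 11.48 and 11.71 in tranylcypromine arrays, against 11.90, 12.04 and 12.13 in saline arrays and 11.54, 11.92 and 12.06 in Tween 80 arrays. At 8 h the values of Rarb were 11.34, 11.53 and 11.86 in tranylcypromine arrays, against 11.84, 11.85 and 12.02 in saline arrays and 12.01, 12.03 and 12.10 in Tween 80 arrays. A single array kept the groups from separating at each of these times. The differences were -0.46 ± 0.14 at 4 h and -0.40 ± 0.14 at 8 h (SE, n = 3 and 6), after 0.16 at 1 h and -0.10 at 2 h, with an adjusted p of 0.0497 over the 4 times in limma, just inside the threshold. A second probe of Rarb differed by -0.42 at 4 h and -0.13 at 8 h and was not called (adjusted p = 0.626), and another, dimmer probe differed by -0.05 and -0.10 (adjusted p = 0.898). The call of Rarb ended in 7 of 9 fits that left out 1 replicate number: tranylcypromine replicates 1 and 2 (adjusted p of 0.338 and 0.184), saline replicates 1, 2 and 3 (0.0592, 0.122 and 0.109) and Tween 80 replicates 1 and 3 (0.131 and 0.103).

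The calls rest on the brightest probe of each gene, and 18 of the 30 genes had 43 further probes, examined after the other results were known. Of these, 4 were called after mianserin (9.30%) and 1 each after tranylcypromine, risperidone and haloperidol (2.33%), by the same limma test over the 4 times. The shares of all probes were 3.26% after mianserin, 1.59% after tranylcypromine, 1.22% after risperidone and 0.13% after haloperidol. With 43 probes, the shares other than that of mianserin rest on single probes. A second probe of Meis2, a homeobox factor of striatal neurons, was called after mianserin (adjusted p = 0.000984) and differed by 0.45, 0.60, -0.67 and -0.58 at 1, 2, 4 and 8 h, while the brightest Meis2 probe was not called (adjusted p = 0.895). At 8 h this second Meis2 probe read 12.96, 13.02 and 13.09 in mianserin arrays, against 13.32 to 13.80 in vehicle arrays, without overlap.

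A further probe of Rasgrp2, the exchange factor CalDAG-GEFI that activates Rap proteins, was called after tranylcypromine, mianserin and haloperidol (adjusted p of 0.0016, 0.0167 and 0.0123), and at 8 h all arrays of each drug lay below all vehicle arrays, with differences of -0.91, -0.65 and -0.99. A further probe of Arpp21 was called after mianserin and risperidone (adjusted p of 0.0237 and 0.0254), with differences of -0.60 and -0.66 at 4 h, and one of Bcl11b after mianserin (adjusted p = 0.0284), with 0.58 at 2 h. The brightest probes of Rasgrp2, Arpp21 and Bcl11b were not called after any drug.

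With the chip as a fixed block in the limma fit, Gpr6 and Rxrg were still called after risperidone (adjusted p of 0.00232 and 0.000541). Under that block Foxp2 (0.135), Slc35d3 (0.0700) and Rarb (0.390) were no longer called.

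**Figure D2:**
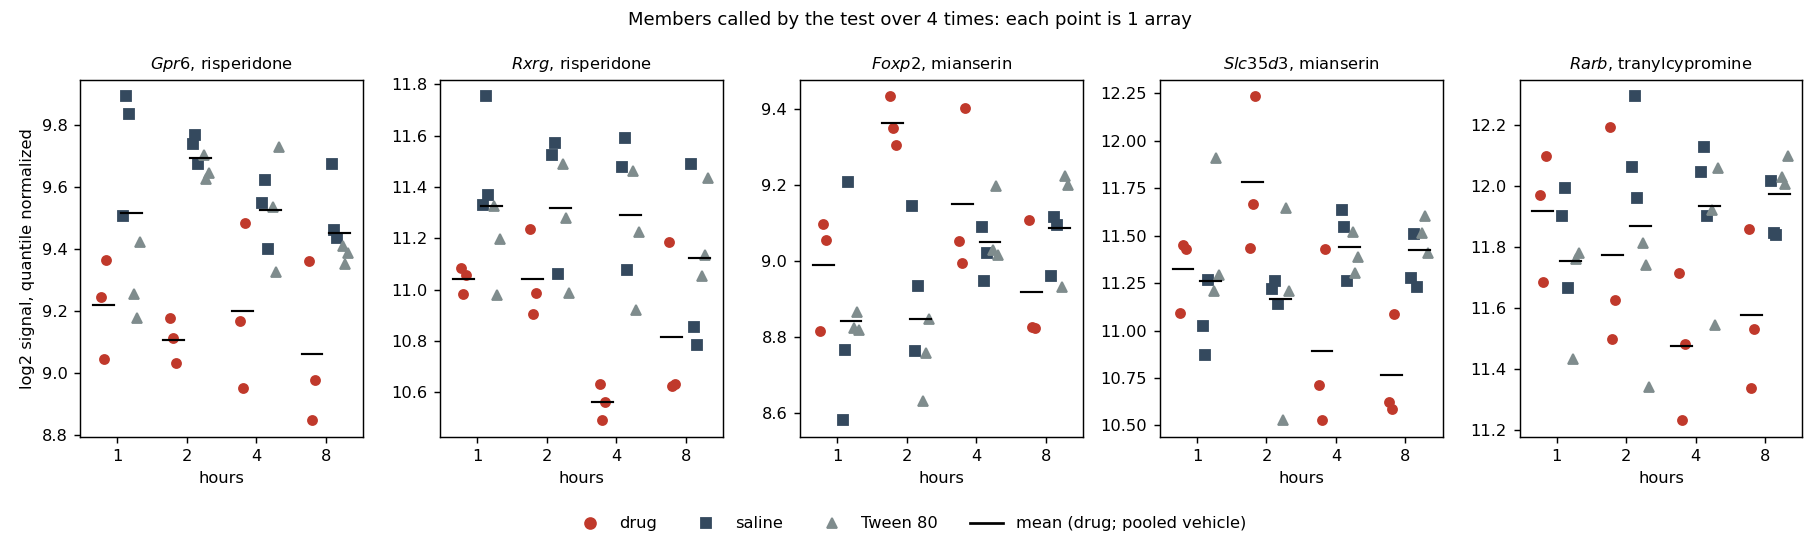
Log2 signal of the 5 called genes by hours after injection, each point 1 array: the drug (circles, left) beside saline (squares) and Tween 80 (triangles) of the first chip set, with bars at the mean of the drug and of the pooled vehicles. Gpr6 at 2 h and Rxrg at 4 h after risperidone and Foxp2 at 2 h after mianserin have no overlap with vehicle.

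Rxrg and Rarb, the retinoid receptor genes, were then compared over all drugs, a choice made after seeing their values. Rxrg was below vehicle in 33 of 36 comparisons and Rarb in 24 of 36, from measurements that share their vehicle arrays within a set and time. The median over the 30 genes was 22 of 36 and the range 10 to 33, so Rxrg was at the top while 11 genes, Drd1 among them, had as many as Rarb or more. After mianserin at 8 h, Rxrg differed by -0.55 (95% interval -0.87 to -0.24, adjusted p over the 4 times = 0.0741) and Rarb by -0.47 (-0.74 to -0.19, adjusted p = 0.0833). After risperidone at 4 h, Rarb differed by -0.41 (-0.68 to -0.13, adjusted p = 0.483). After bupropion, the differences of Rarb lay between 0.00 and 0.10 at all times. The difference of Rarb or Rxrg between drugs did not pass in any of the 15 direct comparisons of drugs of the first set.

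**Figure D3:**
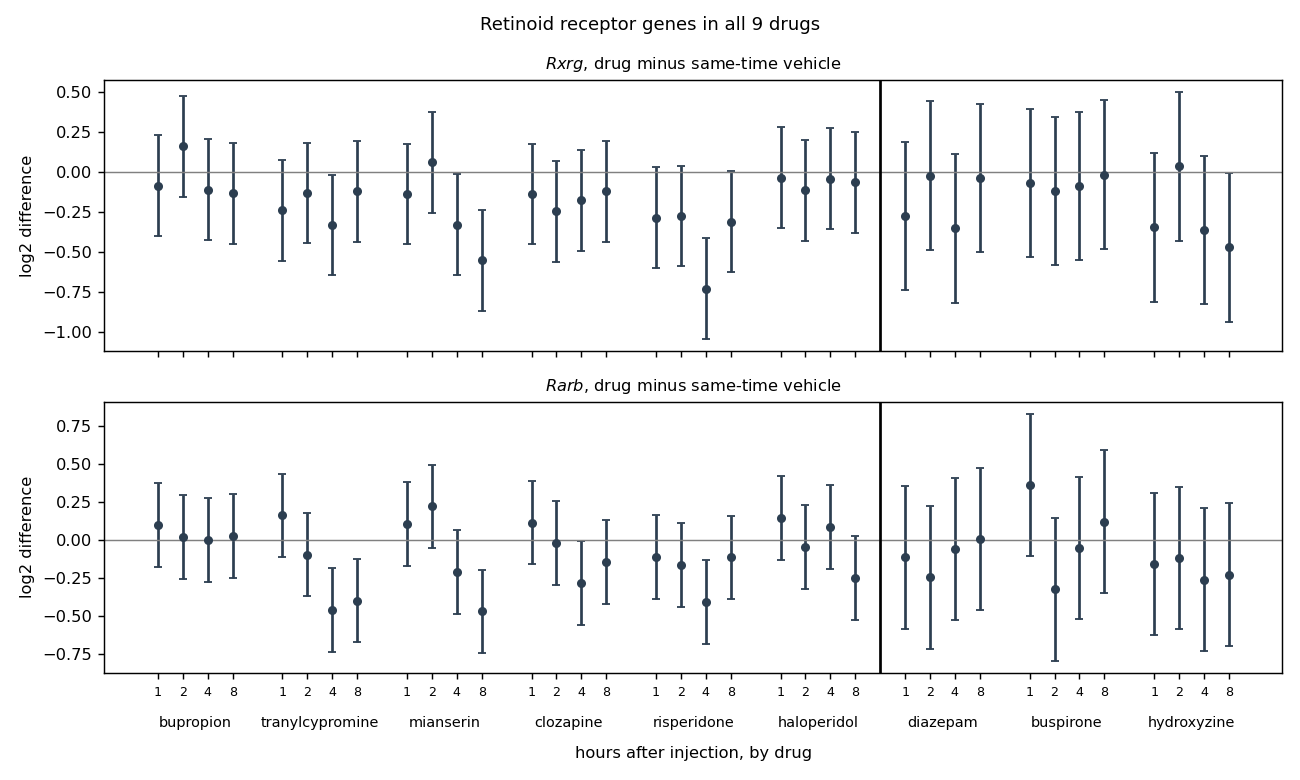
Log2 difference of Rxrg (top) and Rarb (bottom) from vehicle of the same time and chip set, by drug and hours, with 95% intervals from limma. The thick line divides the chip sets; Rxrg at 4 h after risperidone (-0.73) is the lowest point of its panel.

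The dopamine receptors, the targets of the antipsychotics, were not called after any drug. Over 36 comparisons, the differences of Drd1 ran from -0.51 (risperidone, 4 h) to 0.43 (haloperidol, 2 h), those of Drd2 from -0.47 (hydroxyzine, 8 h) to 0.26 (mianserin, 2 h), and those of Drd3 from -0.17 (risperidone, 1 h) to 0.12 (haloperidol, 8 h). The smallest adjusted p over the 4 times in limma was 0.260 for Drd1 (mianserin), 0.499 for Drd2 (tranylcypromine) and 0.818 for Drd3 (risperidone). A 95% interval reached 0.36 to either side of a Drd1 difference in the first set and 0.47 to either side in the second set. Differences smaller than that could not be told from 0, and none was called.

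The values of Drd1 behind its largest differences were as follows. At 4 h after risperidone Drd1 averaged 12.90 ± 0.32 in risperidone arrays and 13.41 ± 0.13 in vehicle arrays (SD, n = 3 and 6), and at 8 h after mianserin it averaged 12.84 ± 0.28 in mianserin arrays and 13.34 ± 0.18 in vehicle arrays. In both cases the drug arrays lay below all vehicle arrays, with adjusted p of 0.195 and 0.162 at the single time. After haloperidol at 2 h Drd1 averaged 13.57 ± 0.26 in haloperidol arrays and 13.14 ± 0.24 in vehicle arrays, with overlapping groups.

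Each receptor was also followed drug by drug at the time of its largest difference. Drd1 differed by -0.30 after bupropion (4 h), -0.24 after tranylcypromine (2 h), -0.51 after mianserin (8 h), -0.30 after clozapine (2 h), -0.42 after diazepam (2 h), -0.21 after buspirone (2 h) and -0.39 after hydroxyzine (4 h). Drd2 differed by 0.15 after bupropion (4 h), -0.32 after tranylcypromine (4 h), -0.27 after mianserin (8 h), -0.19 after clozapine (4 h), -0.28 after risperidone (1 h), -0.19 after haloperidol (8 h), -0.33 after diazepam (8 h) and -0.33 after buspirone (2 h). Drd3, whose signal lay near the background, differed by no more than 0.16 in size after the drugs other than risperidone. These are the largest of 4 values and were picked for their size.

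As a group, the identity genes lay below vehicle in some comparisons and near it in others. The median difference of the 30 genes lay between -0.16 (mianserin, 8 h) and 0.04 (clozapine, 4 h) in the first set, and between -0.25 (hydroxyzine, 4 h) and 0.06 (diazepam, 2 h) in the second. At 8 h after mianserin 26 of the 30 genes lay below vehicle, and at 4 h after risperidone 23 of 30, against a median over the brighter probes of 0.00 in both. Other comparisons were as one-sided: 25 of 30 genes lay below vehicle at 2 h after clozapine, 24 at 4 h after tranylcypromine and 26 at 8 h after hydroxyzine. The controls moved as far, since 25 of 30 genes were lower in Tween 80 than in saline arrays at 1 h (median -0.17), and 28 of 30 were higher in vehicle than in naive arrays at 8 h (median 0.12). The mean signal of the 30 genes lay below all vehicle arrays at 4 h after risperidone and at 8 h after mianserin. It read 10.96 to 11.03 in risperidone arrays, against 11.05 to 11.27 in vehicle arrays. After mianserin it read 10.82 to 11.03, against 11.05 to 11.22 in vehicle arrays. At 2 h after these drugs, and at 4 and 8 h after tranylcypromine, the means overlapped with vehicle. This shift was not tested. At 4 h after risperidone, oligodendrocyte genes averaged 0.12 higher and cortical genes 0.21 lower than in vehicle arrays on the log2 scale. Syndig1l, a synapse differentiation protein, differed at 8 h by -0.91 with mianserin and by -0.72 with bupropion, without being called, and had a within-group SD of 0.53 in the first set.

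After bupropion, clozapine and haloperidol none of the 30 genes was called by its brightest probe, against 0%, 0.0508% and 0.13% of all probes. At an unadjusted p under 0.05 in the same limma test, 0 of the 30 genes passed after bupropion, 0 after clozapine and 1 after haloperidol, against 4.43%, 4.45% and 6.82% of all probes. By the same measure 7 genes passed after tranylcypromine, 7 after mianserin and 5 after risperidone, which is 23.3%, 23.3% and 16.7% of the 30, against 11.1%, 13.5% and 8.50% of all probes. Clozapine and haloperidol block dopamine D2 receptors, as risperidone does. At 2 h, Gpr6 differed by -0.29 after clozapine (95% interval -0.57 to -0.02) and by -0.21 after haloperidol (-0.49 to 0.06), beside -0.58 after risperidone. After clozapine and haloperidol it was not called over the 4 times in limma (adjusted p of 0.9997 and 0.953). After the antidepressants at 2 h, Gpr6 differed by -0.35 (tranylcypromine), -0.24 (mianserin) and 0.07 (bupropion), also without a call. A direct comparison of risperidone with haloperidol or clozapine over the 4 times called none of the identity genes, against 0.384% and 0.0552% of all probes. With so few probes called, this does not show that the drugs act alike on these genes.

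Direct comparisons between drugs, chosen after the values had been seen, called genes in 2 of 15 pairs. Gpr6 differed between bupropion and risperidone (adjusted p = 0.00216, with bupropion higher by 0.26, 0.66, 0.47 and 0.42 at 1, 2, 4 and 8 h), against 0.689% of all probes. Foxp2 and Foxp1, a forkhead factor that acts in both pathways, differed between tranylcypromine and mianserin (adjusted p of 0.0463 and 0.00635), against 2.42% of all probes. At 4 h Foxp1 averaged 10.77 ± 0.44 in tranylcypromine arrays and 11.54 ± 0.06 in mianserin arrays, with 11.10 ± 0.09 in vehicle arrays (SD, n = 3, 3 and 6). The other 13 pairs called none of the 30 genes, against 0.542% of their probes in all.

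After the anxiolytics none of the 30 genes was called. The background was 0.00221% of all probes after diazepam, 0.00442% after buspirone, 0% after hydroxyzine and 0.00883% for any of the 3. At an unadjusted p under 0.05, 2 genes passed after diazepam, 0 after buspirone and 3 after hydroxyzine in limma, against 13.1%, 3.96% and 4.92% of all probes, so that the share after diazepam (6.67%) lay below that of all probes. The scatter within groups was wider in this set, with a median SD over the identity genes of 0.26, against 0.20 in the first set. Isl1, a factor of direct pathway neurons, was 11.01, 11.96 and 11.99 at 4 h in hydroxyzine arrays, against 12.17, 12.42 and 12.60 in saline arrays. The Isl1 groups did not overlap, and the difference of -0.75 ± 0.20 had an adjusted p of 0.624 at this time.

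Saline replicate 6, the highest of these Isl1 values, lay on a chip numbered 10 here, where Isl1 ran from 12.14 to 12.60, against 11.01 to 12.42 on the other chips of the set. The lowest value belonged to an array that stood apart in other genes too. Replicate 3 of hydroxyzine at 4 h had 26 of the 30 genes below its group mean, by 0.41 on average, while its cortical genes (Slc17a7, Tbr1 and others, 9 of 10 with a probe) were 0.56 above. Replicate 2 of the same group ran the other way, with identity genes 0.29 above and cortical genes 0.65 below. Drd1 read 12.29, 12.98 and 11.65 in hydroxyzine replicates 1, 2 and 3 at 4 h, against 12.82, 12.57 and 12.69 in saline replicates 4, 5 and 6. Replicate 1 of tranylcypromine at 4 h also had 26 genes below its group mean, by 0.24 on average, with cortical genes 0.23 above, and Rarb was no longer called without it (adjusted p = 0.196).

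**Figure D4:**
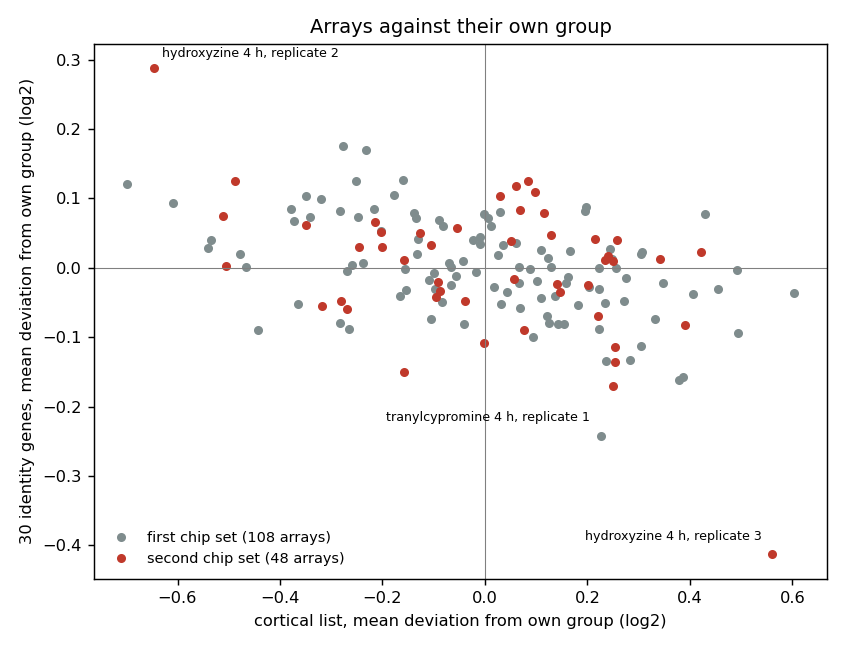
Mean deviation of each array from its own group (log2), for the 30 identity genes (vertical) and for the cortical projection neuron list (horizontal), in 108 arrays of the first chip set and 48 of the second. Replicate 3 of hydroxyzine at 4 h is at -0.41 and 0.56, and replicate 2 at 0.29 and -0.65.

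The deviations of the identity genes from their groups were compared across arrays with those of other lists. With the cortical list, Pearson's r was below 0 for 27 of the 30 genes over 108 arrays of the first set (median -0.16) and for 23 of 30 over 48 arrays of the second (median -0.17), where arrays share chips and normalization. In the second set the microglial list (median -0.22, 22 of 30 below 0) and the astrocyte list (median -0.10, 23 of 30) ran against the identity genes as well. In the first set the microglial median was 0.08 and the astrocyte median -0.04. That astrocyte median covers a wide split of the genes, with 16 of 30 below 0. It ran from r = -0.70 for Slc35d3 to r = 0.78 for Syndig1l. The median r with a list of other medium spiny neuron genes (13 of 15 with a probe) was 0.31 over the arrays of the first set and 0.29 over those of the second. Among the 435 pairs of identity genes the median r was only 0.08 in the first set (280 above 0, lowest -0.66) and 0.22 in the second (316 above 0, lowest -0.75). The strongest pair was Drd1 with Meis2 (r = 0.84 over 108 arrays), and in the second set Gpr6 with Pde1b (r = 0.82 over 48 arrays). Whether the share of cortex in the samples has a part in the called differences was not tested.

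The cortical list overlapped between drug and vehicle arrays in all 5 called cases at the time of their largest difference. It ranged from 9.63 to 10.09 in risperidone arrays and from 9.58 to 10.53 in vehicle arrays at 2 h. At 4 h it ranged from 9.24 to 10.12 in risperidone arrays and from 9.38 to 10.58 in vehicle arrays. It ranged from 9.24 to 10.15 in mianserin arrays and from 9.15 to 10.09 in vehicle arrays at 8 h, and from 9.68 to 10.14 in tranylcypromine arrays and from 9.38 to 10.58 in vehicle arrays at 4 h. At 2 h after mianserin, the time of the Foxp2 rise, it ranged from 9.47 to 9.81, against 9.58 to 10.53 in vehicle arrays. Lists of microglial (7 of 7 with a probe) and endothelial genes (6 of 6) lay below all vehicle arrays at 4 h after risperidone. The microglial list lay at 9.84 to 9.88 in risperidone arrays, against 9.94 to 10.19 in vehicle arrays. The endothelial list lay at 9.85 to 9.99 in risperidone arrays, against 10.14 to 10.37 in vehicle arrays. At 8 h after mianserin, the microglial list lay at 9.54 to 9.70 in mianserin arrays, against 9.98 to 10.20 in vehicle arrays, and the endothelial list at 9.80 to 10.00 in mianserin arrays, against 10.01 to 10.19 in vehicle arrays. At 4 h after tranylcypromine, the microglial list lay at 9.71 to 9.87 in tranylcypromine arrays, against 9.94 to 10.19 in vehicle arrays, and the endothelial list at 9.89 to 9.98 in tranylcypromine arrays, against 10.14 to 10.37 in vehicle arrays. At 8 h after tranylcypromine, oligodendrocyte genes (7 of 8 with a probe) lay at 13.24 to 13.69 in tranylcypromine arrays, against 13.76 to 13.86 in vehicle arrays, and the microglial list at 9.39 to 9.73 in tranylcypromine arrays, against 9.98 to 10.20 in vehicle arrays. Thalamic genes (6 of 6 with a probe) lay at 10.58 to 11.03 in risperidone arrays at 4 h, against 10.21 to 10.58 in vehicle arrays. The list of other medium spiny neuron genes lay at 12.75 to 12.86 in mianserin arrays at 8 h, against 12.87 to 13.11 in vehicle arrays. In the other called cases that list overlapped with vehicle. The part of these lists in the differences was not tested.

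Chips set some identity genes apart in the second set. Slc35d3 read 7.66 to 8.11 on all 6 arrays of chip 10, against 9.08 to 11.33 on the other 42 arrays of the set. The 6 arrays were of diazepam, buspirone, hydroxyzine and saline, at different times. Gnal, the olfactory-type G protein that couples D1 and adenosine receptors to adenylyl cyclase, ran from 8.44 to 9.43 on this chip and from 8.59 to 10.24 on the others. In the second set the chip accounted for 76.2% of the scatter of Slc35d3 within groups, against a median of 25.7% over all probes. In the first set, where Slc35d3 was called after mianserin, this share was 59.9%, against a median of 28.9% over all probes. In the second set the differences of Slc35d3 from saline ran from -0.97 (diazepam, 2 h) to 1.1 (diazepam, 1 h) with an SE of 0.64, none of them called. Without chip 10 the 3 anxiolytics still called none of the 30 genes.

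**Figure D5:**
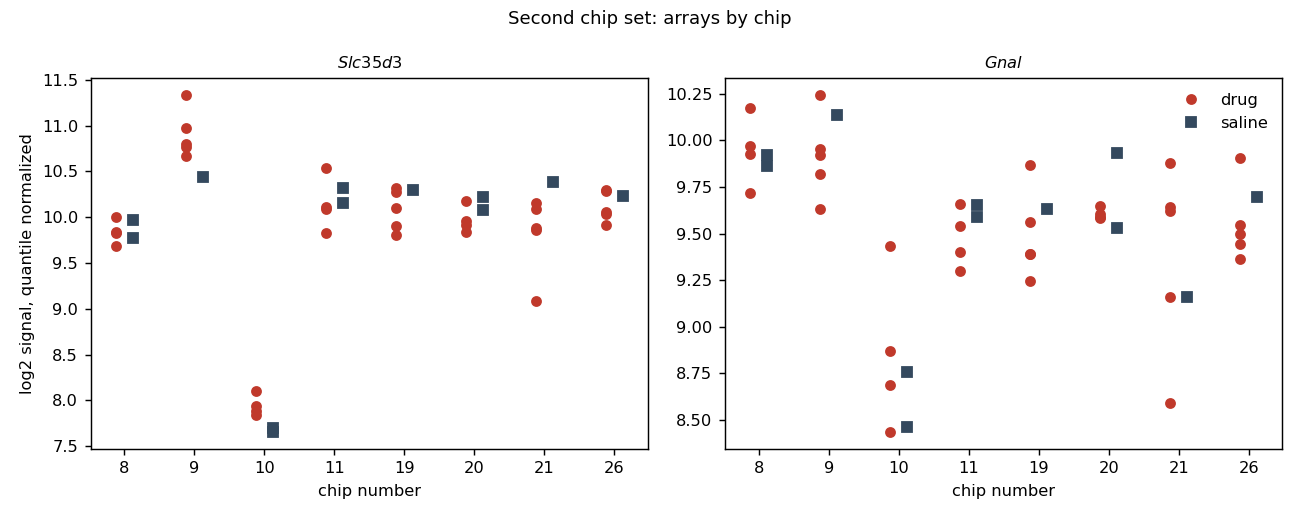
Log2 signal of Slc35d3 (left) and Gnal (right) on the 8 chips of the second set, each point 1 array, with drug arrays (circles, left) and saline arrays (squares). All 6 arrays of chip 10 read 7.66 to 8.11 for Slc35d3.

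No single identity gene was called between the controls, although the 30 genes leaned to one side at some times, as given above. None of the 30 genes was called between vehicle-injected and naive mice (0% of all probes), between Tween 80 and saline (0%), or over time in vehicle mice (0.583%). At an unadjusted p under 0.05 in limma, 0, 3 and 2 genes passed, against 3.28%, 5.06% and 9.64% of all probes. Ptpn5, the striatal phosphatase STEP, had the largest difference from naive, and averaged 11.36 ± 0.34 in vehicle arrays and 10.81 ± 0.62 in naive arrays at 4 h (SD, n = 6 and 3). Syndig1l averaged 12.32 ± 0.26 in Tween 80 arrays and 12.97 ± 0.19 in saline arrays at 2 h (SD, n = 3 each), without overlap and with an adjusted p of 0.666.

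Other genes of these neurons and of dopamine signalling were called in small numbers. Of 13 further medium spiny neuron genes with a probe, 2 rose after tranylcypromine and 1 changed after mianserin. Over all probes, 1.59% and 3.26% were called after these drugs in either direction, so the counts rest on single genes. Pdyn, the dynorphin precursor of direct pathway neurons, was 0.74 ± 0.10 above vehicle at 8 h after tranylcypromine (SE, adjusted p = 2.09e-08 over the 4 times), and Dclk3, a kinase of striatal neurons, 0.43 ± 0.12 above (adjusted p = 0.0413). Penk, the enkephalin precursor of indirect pathway neurons, was 0.58 ± 0.18 above vehicle at 2 h after mianserin (adjusted p = 0.0243). Of 25 genes of the dopamine and cAMP cascade with a probe, only Pde4b, a cAMP phosphodiesterase, was called after risperidone, and it was 0.66 ± 0.13 below vehicle at 4 h (adjusted p = 0.00689).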

How the data were processed

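Striatal RNA was hybridized to 156 arrays on 26 chips. The methods name BeadStudio for the raw values, then background subtraction, normalization by quantiles, logarithms and z-scores. The values deposited by the authors are log2 signals of 45281 probes, in a table without normalization and a quantile normalized table, and neither is in z-scores. Detection p-values were not used, so the signal over background of single probes is unknown, and the number of arrays sets the precision. The log2 values without normalization were quantile normalized across the 156 arrays (limma 3.58.1, R 4.3.3, statmod 1.5.0). Missing values removed 2 probes. Genes were named from the platform annotation: 34883 probes had 1 symbol, 18 several and 10378 none.

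Group means were fitted for each chip set, with variances moderated along an intensity trend. The moderated F test covered the 4 times, and p-values were adjusted by Benjamini and Hochberg over 45279 probes at a false discovery rate of 5%. Genes called by this test for a drug were described by array, and the dopamine receptors in every drug. Replicates are arrays of separate pools of 2 mice. The identity genes and lists were chosen with earlier results of these data known. The test was tried on simulated data. Alternatives changed the spread, chip, vehicle, normalization, probe choice, trend and replicates. Figures were drawn with matplotlib 3.10.9.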

Additional observations from a re-analysis of the deposited data

Results flagged for a closer look

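In vehicle arrays of the first chip set, 8 of 120 groups of 6 values held 1 array far from the other 5, where chance gives about 1 in 20 groups. At 2 h, Rasd2 read 14.28 in saline replicate 1, against 14.63 to 14.77 in the others, and Ebf1 read 8.95 in Tween 80 replicate 3, against 8.51 to 8.61. At 4 h, Ppp1r1b read 14.58 in Tween 80 replicate 2, against 15.03 to 15.24, and Arpp21 read 15.54 in the same array, against 15.65 to 15.70. At 8 h, saline replicate 2 was high for Gpr6 (9.67, against 9.35 to 9.46) and for Pde10a (11.48, against a lowest value of 10.74). At 8 h, Drd1 read 13.68 in Tween 80 replicate 2, against 13.19 to 13.37, and Ptpn5 read 10.34 in Tween 80 replicate 1, against 10.98 to 11.29.

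Differences between drugs were found for 3 genes in limma's F test over the 4 times, chosen after seeing the data. Gpr6 differed between bupropion and risperidone (adjusted p = 0.00216). Between tranylcypromine and mianserin, Foxp1 (adjusted p = 0.00635) and Foxp2 (adjusted p = 0.0463) differed.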

How the results depend on the processing

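Counts are genes called over the 4 times. With 1 spread for all arrays, 0 genes were called after tranylcypromine, 0 after mianserin, 1 after risperidone (Rxrg), 0 for any drug of the first set, 3 after diazepam, 2 after hydroxyzine and 1 for any drug of the second set. This fit called 6655 probes after diazepam, against 1 in the fit for each chip set. With the chip as a fixed block, tranylcypromine called 0, mianserin 1 (Rxrg) and any drug of the first set 3, and with the chip as a random block tranylcypromine called 0, mianserin 3 (Rxrg added) and any drug 4. With median scaling, tranylcypromine called 0, mianserin 1, risperidone 0, haloperidol 1 (Slc35d3) and any drug of the first set 2. Against the own vehicle alone, tranylcypromine, mianserin and risperidone each called 0. With the mean of all probes of a gene, mianserin called 1 (Slc35d3), tranylcypromine 1 (Rasgrp2) and risperidone 3 (Gpr6, Rarb and Rxrg). Among the brighter probes, which hold 28 of the 30 genes, mianserin called 4 and any drug of the first set 4, and without the intensity trend any drug called 2. Leaving out replicates gave 0 to 1 genes after tranylcypromine, 0 to 2 after mianserin, 1 to 2 after risperidone and 0 to 3 for any drug of the first set, and 0 for the other drugs and controls. Without replicate 1 of tranylcypromine at 4 h, chosen after seeing the data, tranylcypromine called 0 and any drug 2. Leaving out replicate 3 of hydroxyzine at 4 h or the chip with low Slc35d3, both also chosen after seeing the data, called 0 genes after each anxiolytic.

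The 5 called differences kept their sign under every alternative. Gpr6 stayed called in 17 of 20, Rxrg in 16 of 20, Foxp2 in 11 of 20, Slc35d3 in 10 of 20 and Rarb in 7 of 21. The adjusted p ran from 0.00036 to 0.124 for Gpr6, from 0.000464 to 0.200 for Rxrg, from 0.0106 to 0.454 for Foxp2, from 0.00509 to 0.821 for Slc35d3 and from 0.0165 to 0.390 for Rarb. With the replicate block in the first set, 1 gene was called after tranylcypromine, 2 after mianserin and 2 after risperidone, the same genes as without it. Same-numbered arrays deviated together no more than others (r of -0.01 for both in the first set, and -0.05 against -0.02 for other numbers in the second). These are averages, and whether arrays of the same number shared a day or batch was not tested. With 3 arrays a group and signals of Drd3, Chrm4, Adcy5 and Eya1 at the background, small changes would be missed.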
